A study of Rattus norvegicus with 12 samples.

Results

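The 9 genes described here, Plaur, Plau, Plat, Mmp3, Mmp10, Mmp13, Timp1, Timp2 and Adamts1, code for proteases that act at the cell surface and in the matrix around the cell, for a receptor that holds one of them there, and for inhibitors of them. The genes were chosen with earlier results of these data known. They were measured by every noncontrol probe of the array whose deposited gene name was one of these symbols, and no measured value was used to take a probe. This gave 9 probes on 27 spots, 1 probe for each gene, of 41012 probes on the array. Plat and Timp1 were each printed on 10 spots.

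The RNA came from PC12 cells, a line from a rat adrenal pheochromocytoma that grows neurites when it is differentiated. Cells received PACAP38, a peptide of the secretin family, at 1e-07 M for 5, 10, 15, 30, 60 or 120 min, and each time point had its own control, which the labels name only as control, with no word on a vehicle. Total RNA of PC12 cells (n = 6) was pooled in each group, and 2 arrays with 2 colours took the PACAP38 pool beside its control pool, once in each dye order. Both arrays thus held the same pools, and a time point was 1 replicate. The arrays lay on 3 slides, with 5 and 10 min on slide 1, 15 and 30 min on slide 2, and 60 and 120 min on slide 3. All groups were the same cell line, so the values describe tumour-derived cells in culture and not a tissue.

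Tissue plasminogen activator (Plat) and urokinase (Plau) cut plasminogen to plasmin, and Plaur is the receptor that holds urokinase at the cell surface. Plasmin degrades matrix proteins and can start the activation of the matrix metalloproteinases, secreted as inactive precursors, of which Mmp3 and Mmp10 are stromelysins and Mmp13 is a collagenase. Timp1 and Timp2 bind and block metalloproteinases, and Adamts1 cleaves proteoglycans such as versican. In PC12 cells, plasminogen activators and Plaur are best known from work on nerve growth factor and neurite outgrowth.

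The probes of 4 genes that came to be counted as higher, shown so that it is clear which stretch of RNA was measured, begin at their 5′ end with these 30 of 60 bases, as the deposited files give them.
Plaur: ctacagaacactgtattgaagtggtgacgc
Mmp10: tggagatttgatgagacaagacagcttatg
Mmp13: taaaggaaggggataaccactgttctgagg
Timp1: ggggtgtgcacagtgtttccctgttcagcc
On rat build rn4, the build named in the file headers, the Plaur probe lay at chr1:79713035-79713094 and the Timp1 probe at chrX:12542700-12543703. The Mmp13 probe lay at chr8:4168554-4168613 and the Mmp10 probe at chr8:4373403-4374134, so both belong to the run of metalloproteinase genes on this chromosome. The stretches of Timp1 and Mmp10 span 1004 and 732 bases for 60 bases of probe, so the match was interrupted in the genome, while those of Plaur and Mmp13 were continuous. Whether a probe lies in coding sequence or in a UTR was not determined here.

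The treatment was seen in Fos, an AP-1 subunit, at 16.8-fold of control at 10 min, and in Egr1, an immediate early transcription factor, at 60.7-fold at 30 min. The level checks Actb and Gapdh stood at 0.880 to 1.12-fold up to 60 min and at 1.16 to 1.37-fold at 120 min. All 8 chromaffin cell markers on the array were well above background on every control array, and their folds at 120 min ran from 0.901 for Ddc to 1.81 for Th, 2.04 for Scg2 and 2.36 for Dbh. The 3 endothelial markers, the leukocyte markers Ptprc, Itgam and Cd14, and the glial marker Gfap were well above background on no control array. The leukocyte list was carried by Cd68, which stood at 1.94-fold at 120 min, and its summed signal ranged from 126 to 252 in control and from 126 to 457 with PACAP38. The fibroblast list ranged from 238 to 501 in control and from 259 to 389 with PACAP38, with Lum at background and Pdgfra at 0.457-fold at 120 min. The part of these lists in the results below was not tested.

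PACAP38 was followed by higher RNA of 5 of the 9 genes, and this came late. A probe was counted as higher when PACAP38 was at least 2-fold of control with a deposited spot p-value below 0.01 on both arrays of a time point, and as lower at 0.5-fold or less. For a probe on several spots, such as those of Plat and Timp1, the median of the spot p-values was taken. No member was counted from 5 to 30 min, when 0.249% of all probes were counted as higher at 30 min. At 60 min 2 of 9 members were counted as higher, Plat and Mmp13, against 0.871% of all probes. At 120 min 5 of 9 were counted as higher, Plat, Plaur, Mmp10, Mmp13 and Timp1, against 1.95%. No member was counted as lower at 60 or 120 min, where 0.376% and 1.53% of all probes were. The members were chosen with earlier results of these data known, so these counts describe them and give no support of their own. In RNA of a whole culture, a change in the share of cells of a kind and a change in RNA per cell cannot be told apart.

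**Figure D1:**
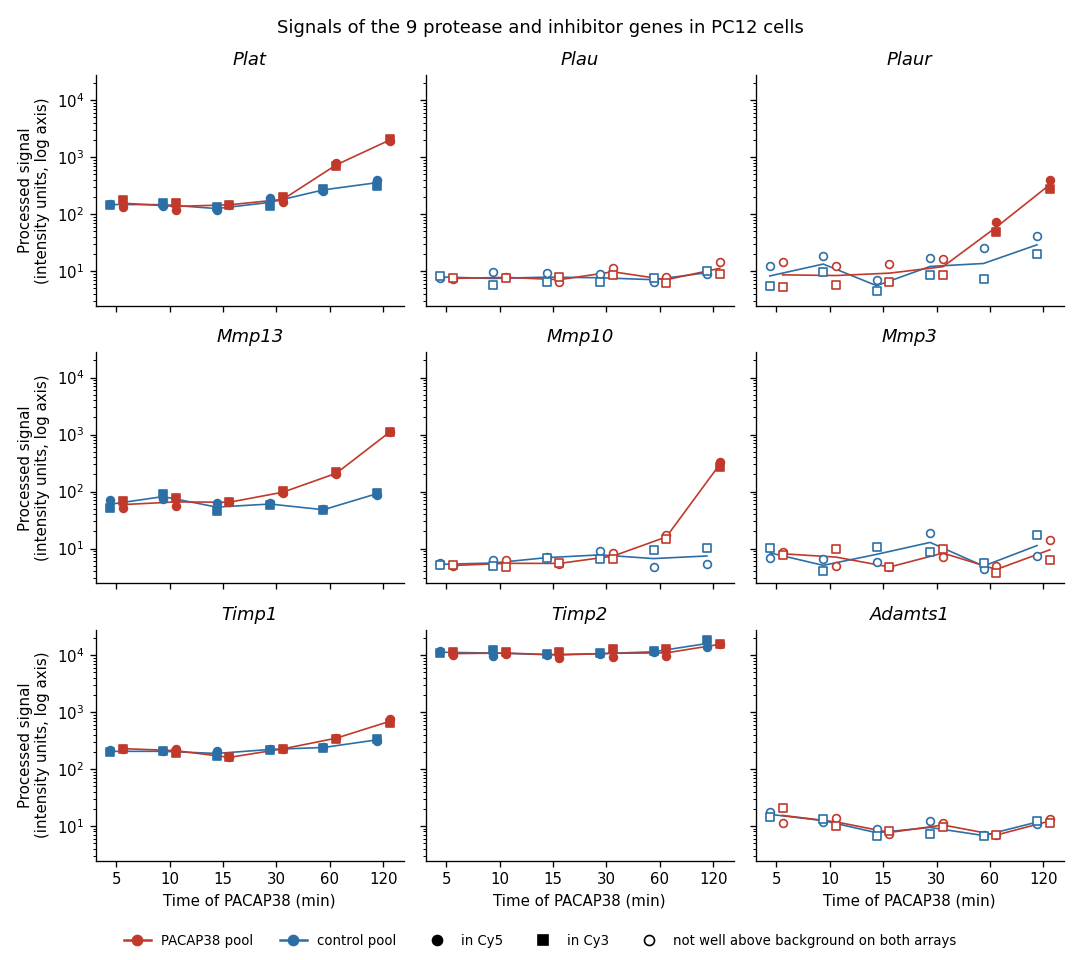
Processed signals (intensity units, log axis) of the 9 genes against the time of PACAP38 (min, evenly spaced). Circles are signals in Cy5 and squares in Cy3, red for PACAP38 pools and blue for control pools, lines join the geometric means of both, and open points mark an RNA that was not well above background on both arrays of that time point. Plat, Mmp13, Mmp10, Plaur and Timp1 leave the control at 60 or 120 min, and Plau, Mmp3 and Adamts1 have open points throughout.

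Plat, the activator, had control signals of 119 to 189 from 5 to 30 min, and PACAP38 signals of 119 to 204, which overlapped them. At 60 min PACAP38 gave 783 in Cy5 and 685 in Cy3, and control gave 258 in Cy5 and 275 in Cy3. At 120 min PACAP38 gave 1954 and 2044, and control gave 402 and 316. The PACAP38 signals thus lay above every control signal of the series at both late time points. The folds of the 2 arrays were 2.85 and 2.66 at 60 min, and 6.18 and 5.09 at 120 min, while at 30 min they were 1.18 and 1.08. The geometric mean of both arrays was 2.75-fold at 60 min and 5.61-fold at 120 min. The control of Plat was itself higher on the slide of 60 and 120 min. After normalization between arrays its control pools stood at a log2 signal of 7.84 and 7.99 there, and at 7.21 to 7.51 on the other slides.

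Plau, the other activator, was well above background on no array in either RNA. Its processed signals ran from 5.81 to 14.35, and no fold is given.

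Plaur, the urokinase receptor, was well above background in neither RNA up to 30 min, with signals of 4.45 to 18.25. At 60 min PACAP38 gave 73.1 in Cy5 and 47.9 in Cy3, against control signals of 25.9 in Cy5 and 7.16 in Cy3, of which 1 of 2 was well above background. At 120 min PACAP38 gave 400.3 and 270.5 against control signals of 41.9 and 19.99, again with 1 of 2 above background. At both time points the control that passed was the one in Cy5, on the array where Cy3 carried PACAP38. On that array the fold was 1.85 at 60 min, with a deposited spot p-value of 0.0110, so that Plaur missed both limits and was not counted then. At 120 min the fold on that array was 6.45. On the other array the ratios were 10.2 and 20.02, but they were taken over a control signal at background and have no firm size.

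Mmp13, the collagenase, had control signals of 45.1 to 95.6 over all time points, all well above background. With PACAP38 it gave 51.7 to 76.8 from 5 to 15 min, 93.1 and 102 at 30 min, then 202 and 217.5 at 60 min, and 1107 on both arrays at 120 min. From 60 min on these signals lay above all control signals. At 30 min the folds of 1.60 and 1.62 were alike on both arrays, with deposited spot p-values of 0.0173 and 0.0189, and did not reach the limits of fold and p-value. At 60 min the folds were 4.29 and 4.45, and at 120 min 11.6 and 12.6, with a geometric mean of 12.1-fold.

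Mmp10, a stromelysin, was well above background at 120 min with PACAP38 and in no other pool. Its control signals ran from 4.75 to 10.2 over all arrays. PACAP38 gave 17.5 and 14.6 at 60 min, which did not pass as above background, and 335.6 and 268.1 at 120 min. Since control was measured on neither array, the fold is a lower bound. Against the lowest signal that still passed as well above background, or the signal of the probe where that was higher, Mmp10 at 120 min was at least 10.0-fold higher with PACAP38. Mmp3, the other stromelysin, ran from 3.76 to 18.6 and was above background on no array.

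Timp1, the inducible inhibitor, had control signals of 171.5 to 226 from 5 to 30 min and PACAP38 signals of 159 to 229 that overlapped them. At 60 min PACAP38 gave 355 and 340 against control signals of 247 and 229.5, and at 120 min 741 and 637 against 311 and 339. Its folds at 60 min were 1.55 and 1.37, and those at 120 min 2.19 and 2.05, just over the limit of 2. Timp2, the other inhibitor, gave 9037 to 15460 with PACAP38 and 9563 to 18220 in control, and the ranges overlapped. Its folds ran from 0.814 to 1.24 over the 12 arrays, and it was counted at no time point. On arrays where Cy5 carried PACAP38 the Timp2 fold was below 1 at each of the 6 time points, and on those of the opposite order it was above 1 at 5 of 6. The mean of both dyes stayed between 0.945 and 1.02. Adamts1 ran from 6.64 to 20.9 and was above background on no array.

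**Figure D2:**
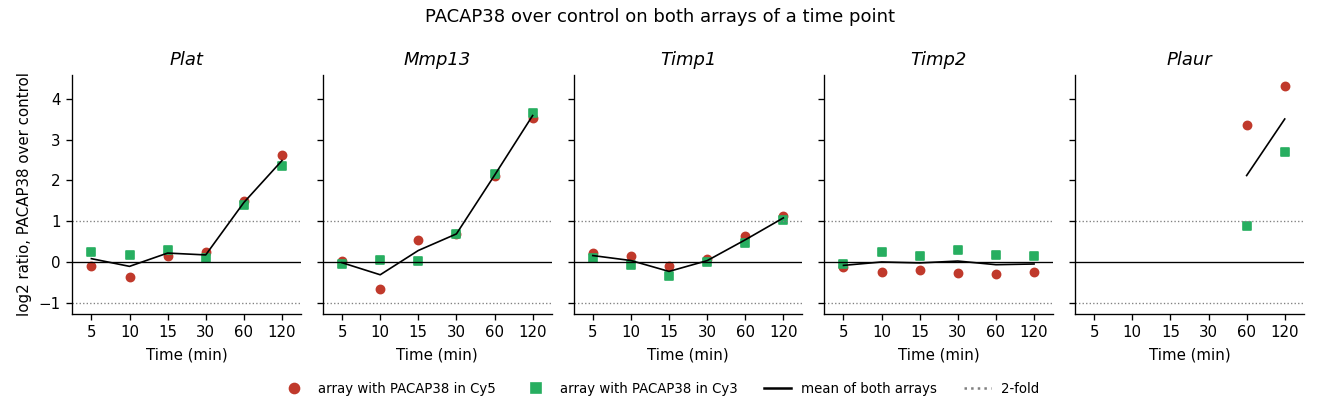
log2 ratio of PACAP38 to control against time (min, evenly spaced) for the 5 genes measured in both RNAs on at least 1 array each. Circles are arrays with PACAP38 in Cy5, squares those with PACAP38 in Cy3, the line is the mean of both, and dotted lines mark 2-fold. The arrays of Plat, Mmp13 and Timp1 lie close together at 60 and 120 min, those of Plaur lie apart, with its control at background on the Cy5 arrays, and Timp2 stays near 0 with its dyes on opposite sides.

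To set the change against a spread between pools, each PACAP38 pool was compared with the 6 control pools of all time points with limma across 20264 probes, on log2 signals averaged over both dyes. The lone PACAP38 pool was assumed to vary like the control pools, the 6 comparisons share those controls, and the labels do not say whether the control pools came from separate cultures, so the p-values measure the spread between these pools, which may be technical. The 6 members with a signal above background at some time entered. At 60 min 3 of 6 rose at an adjusted p below 0.05, against 2.58% of all probes, and at 120 min 5 of 6 rose, against 8.62%. No member fell at 120 min, where 14.9% of all probes did. Since 3 members without signal did not enter, the 6 are not all members, and 2 of the 6, Plaur and Mmp10, entered only through the late PACAP38 pools in which they were high. These counts therefore describe the probes measured and give no support of their own.

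The 6 control pools of Plat ranged from 7.21 to 7.99 with a median of 7.45 (log2 signal), and the PACAP38 pools stood at 7.29 to 7.68 up to 30 min, 9.30 at 60 min and 10.48 at 120 min. In the limma fit Plat rose by a log2 of 1.75 ± 0.29 (SE) at 60 min (adjusted p = 0.0127) and of 2.93 ± 0.29 at 120 min (adjusted p = 0.00044). For Mmp13 the control pools ranged from 5.33 to 6.57 with a median of 6.04, and the PACAP38 pools of 60 and 120 min stood at 7.46 and 9.59, above all of them. Its log2 difference was 1.45 ± 0.36 at 60 min (limma adjusted p = 0.0684), which did not pass the threshold, and 3.58 ± 0.36 at 120 min (limma adjusted p = 0.00051), which did. The 60 min value passed without the control pool of 10 min (limma adjusted p = 0.0344) or of 60 min (0.0247), with normexp (0.0378), with no normalization between arrays (0.0253) and with only the arrays where Cy3 carried PACAP38 (0.0409). The same value missed the threshold with slide as a block, with no filter on dim probes and with only the arrays where Cy5 carried PACAP38. It also missed without the control pool of 5, 15, 30 or 120 min. Within the arrays of its own time point, the log2 ratio of Mmp13 at 60 min was 2.13.

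For Timp1 the control pools lay within 7.66 to 7.97, the PACAP38 pool of 60 min stood at 8.204 and that of 120 min at 8.91. The log2 differences were 0.38 ± 0.13 (limma adjusted p = 0.182) and 1.09 ± 0.13 (limma adjusted p = 0.0011). For Timp2 the control pools lay within 13.4 to 13.6, and the PACAP38 pool of 120 min, at 13.4, was among them, while that of 60 min, at 13.30, lay below the lowest, at 13.36. At 60 min the log2 difference was -0.19 ± 0.12 (limma adjusted p = 0.478). Its log2 difference of -0.09 ± 0.12 at 120 min did not pass (limma adjusted p = 0.621), and it turned to 0.42 without normalization between arrays, which moved the median of all probes from -0.03 to 0.49, so that Timp2 then stood at -0.08 relative to that median.

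Plaur had control pools at or near background, from 2.66 to 4.29, with 1 of 2 arrays above background at 60 and at 120 min. The control pools of Mmp10 were all at background, from 2.35 to 2.96. For Plaur and Mmp10 alike, such a log2 signal has no firm size. Their PACAP38 pools at 60 min stood at 5.75 and 4.198, and at 120 min at 7.79 and 7.69. They entered the fit only through the PACAP38 pools of 60 or 120 min, so that a difference was built into their entry. With that limit, both passed in the limma fit at 120 min, Plaur with an adjusted p of 0.00090 and Mmp10 with 2.99e-05, and also at 60 min, with 0.0431 and 0.0123. The 60 min calls were less firm. Plaur missed the threshold with only the arrays where Cy3 carried PACAP38 (limma adjusted p = 0.269), with slide as a block (0.147), with no filter on dim probes (0.0792), and without the control pool of 5, 10, 30 or 60 min (limma adjusted p of 0.0651 to 0.0884). The comparison of Mmp10 at 60 min set signals at background in both RNAs against each other, so that its pass gives no fold. It missed the threshold with normexp (limma adjusted p = 0.459), with no normalization between arrays (0.109) and with only the arrays where Cy5 carried PACAP38 (0.0591). With slide as a block all 5 genes still passed at 120 min, with log2 differences of 2.56 for Plat, 3.93 for Mmp13 and 1.17 for Timp1. For Plaur and Mmp10 the fitted differences were 3.83 and 5.05, both over control pools at or near background and so without a firm size.

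**Figure D3:**
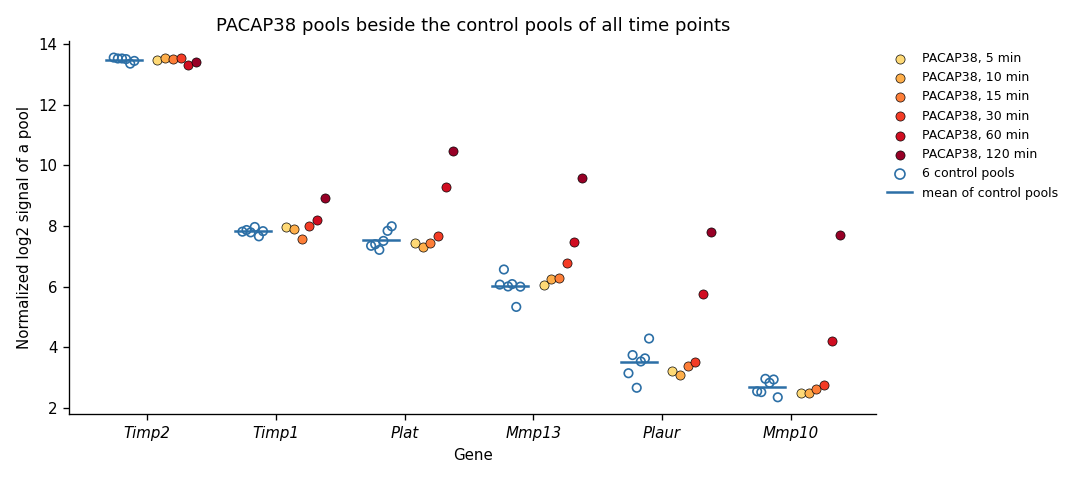
Normalized log2 signal of each pool for the 6 members that entered the fits. Open blue circles are the 6 control pools with their mean as a line, and filled points are the PACAP38 pools from 5 min (yellow) to 120 min (dark red). The 120 min pools of Timp1, Plat, Mmp13, Plaur and Mmp10 lie above all their control pools, and that of Timp2 lies within them.

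The sizes depended on how background was handled. With normexp background correction and an offset of 50 added to the signals, then loess, the log2 ratio at 120 min became 1.71 for Plat, 1.57 for Mmp13, 0.92 for Mmp10, 0.82 for Plaur and 0.60 for Timp1. Only Plat and Mmp13 then passed 2-fold on both arrays at 120 min, and none did at 60 min. In the limma comparison with control pools under normexp all 5 still passed at 120 min, with log2 differences of 0.58 for Timp1 to 1.88 for Plat, while at 60 min Mmp10 lost its pass. Plaur and Mmp10 entered the fit only through their late PACAP38 pools, so their passes give no support of their own.

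Over the time course, none of the 6 members had a slope of the log2 ratio on log2 time that passed, where 0.523% of all probes rose (limma, adjusted p below 0.05). The slopes were 0.82 ± 0.14 (SE) for Mmp13, 0.54 ± 0.12 for Plat and 0.21 ± 0.08 for Timp1, in log2 units per doubling of time, with adjusted p of 0.0596, 0.0784 and 0.139. Against time in minutes, where 10.2% of all probes rose, the same 5 genes that were counted at 120 min passed, with limma adjusted p of 0.0024 for Mmp13, 0.0029 for Plat, 0.0040 for Mmp10, 0.0085 for Plaur and 0.0119 for Timp1. Mmp10 and Plaur entered this fit only through their late PACAP38 pools, and their ratios from 5 to 30 min are of signals at background in both RNAs, so that their passes give no support of their own. With slide as a block, which was fitted on log2 time and not on minutes, none passed.

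The other genes of the plasmin and metalloproteinase systems were taken from a list of 98, of which 91 had 126 probes on the array. Of these probes 65 were above background on no array, and 46 probes of 38 genes entered the fits. By fold and spot p-value 1 gene of the list was counted as higher at 60 min and 1 at 120 min, while 1 was counted as lower at 30 min and 2 at 120 min. Over all probes the counted shares were 0.871% and 1.95% for higher, and 0.102% and 1.53% for lower at 30 and 120 min. In the limma comparison 7 of 46 probes rose and 3 fell at 120 min, where 8.62% of all probes rose and 14.9% fell. At 60 min 0 rose and 1 fell, where 2.58% and 3.28% of all probes did. The median fold was 1.03 over 44 measured probes at 60 min and 1.14 over 40 at 120 min, where all measured probes of the array had 0.986 and 0.984.

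Mmp12, the macrophage elastase, was the gene of this list counted as higher. It was at background up to 30 min, with signals of 4.64 to 15.8. PACAP38 gave 54.8 and 51.8 at 60 min, with control at background, which is at least 3.05-fold higher, and 601.5 and 562.5 at 120 min against control signals of 38.1 and 47.9. Control at 120 min was above background on 1 of 2 arrays, where the fold was 14.8, and the ratio on the other array was 12.6 (limma adjusted p = 0.0020). Like Plaur, Mmp12 entered the fit only through its late PACAP38 pools.

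Mmp11, known as stromelysin-3, was counted as lower at 120 min, with signals of 111 and 81.7 with PACAP38 against 199 and 251 in control and folds of 0.440 and 0.410 (limma adjusted p = 0.0082). Lrp2, the endocytic receptor megalin, was also counted as lower at 120 min, with 36.1 and 29.3 against 82.6 and 77.7 and folds of 0.465 and 0.354 (limma adjusted p = 0.00040). Serpina5, the protein C inhibitor, was counted as lower at 30 min, when PACAP38 was at background, with control at least 2.68-fold higher. At 60 min its fold was 0.501, and it was the probe that fell in the limma fit then (adjusted p = 0.0192), and at 120 min its fold was 0.768. Tfpi, the tissue factor pathway inhibitor, stood at 2.003-fold and the receptor Vldlr, which takes up complexes of activator and inhibitor, at 1.94-fold, both with a pass in the limma fit (adjusted p of 0.0011 and 0.0019). Probes that also rose were of Anxa2, a surface protein that binds plasminogen, at 1.54-fold, of the cathepsin gene Ctsl at 1.49-fold, and of Bmp1, the procollagen C-proteinase, at 1.94-fold. The other probe of Ctsl, at 1.65-fold, and the other 2 probes of Bmp1, at 1.36 and 1.34-fold, did not pass. Beside Lrp2 and Mmp11, the probe that fell was of the membrane protease gene Adam8 (limma adjusted p = 0.0238). It was above background with PACAP38 on 4 of 12 arrays and in control on 5 of 12. At 120 min it was not measured in both RNAs, so no fold is given. The other probe of Adam8 was above background on no array.

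**Figure D4:**
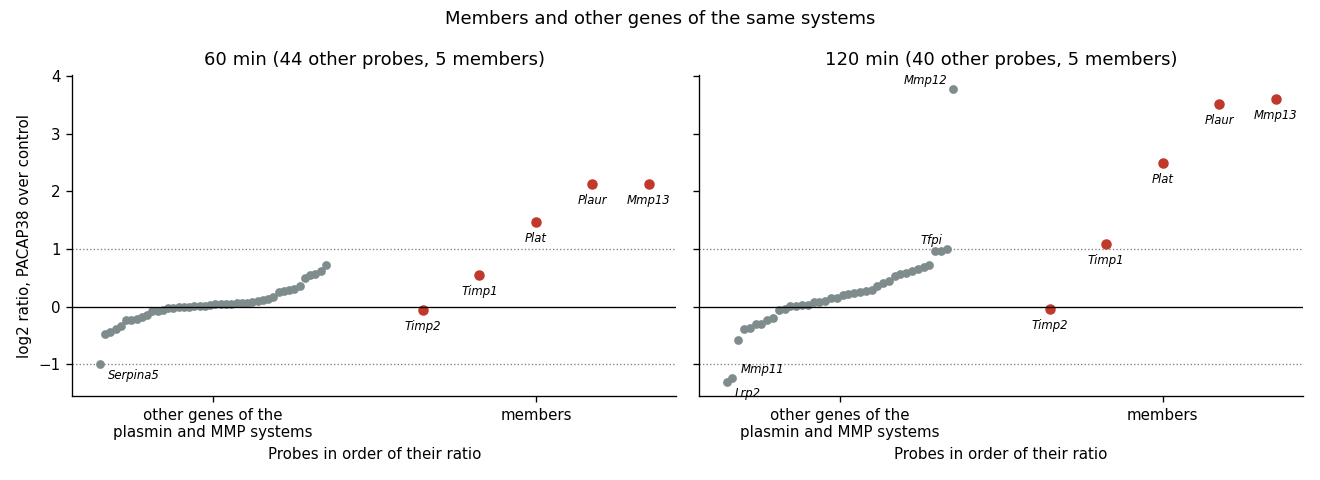
log2 ratio of PACAP38 to control at 60 and 120 min for probes measured in both RNAs, in order of their ratio within each set. Grey points are 44 and 40 probes of other genes of the plasmin and metalloproteinase systems and red points are the 5 members that could be measured in both RNAs. Most grey points lie within 2-fold (dotted lines), and the ratios of Mmp12 and Plaur include 1 array with control at background.

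The array carried 11 probes of 10 metalloproteinase genes in the run on rn4 chromosome 8, from Mmp13 at 4168554 to Mmp7 at 4533706. At 120 min Mmp13, Mmp12 and Mmp10 were counted as higher. Mmp13 and Mmp12 were neighbours among the genes probed, and Mmp1b, Mmp3 and Mmp1 lay between Mmp12 and Mmp10. The probes of Mmp1b, Mmp3, Mmp1, Mmp8, Mmp27 and Mmp7 were above background on no array. Mmp20 passed as above background on 1 array with PACAP38 and was not counted. Mmp13 was the gene of this run with signal in control cells on all 12 arrays.

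Promoter windows were at hand for 8 of the 9 members, all but Plat, from RefSeq on GRCr8, a build other than that of the probes. A window held 250 bases before the start of the gene and 50 after it. The letters TGANTCA, bound by AP-1, were found in 4 of 8 windows, those of Plaur, Mmp13, Mmp10 and Mmp3, while 7.33% of all 33469 windows held them. They are shown for these 4 because 3 of them were counted as higher at 120 min, Mmp13 already at 60 min, and Mmp3, with the same letters, was not measurable. Each line gives the 120 bases before the start, 5′ to 3′ on the strand of the gene, with TGANTCA and, where present, TATAAA in capitals.
Plaur, chr1:89181243-89181362, plus strand: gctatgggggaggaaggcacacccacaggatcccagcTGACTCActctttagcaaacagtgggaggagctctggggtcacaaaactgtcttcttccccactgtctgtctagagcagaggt
Mmp13, chr8:12782709-12782828, plus strand: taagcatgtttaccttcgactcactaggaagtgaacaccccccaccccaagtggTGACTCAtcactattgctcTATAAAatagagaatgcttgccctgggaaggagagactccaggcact
Mmp10, chr8:12974587-12974706, plus strand: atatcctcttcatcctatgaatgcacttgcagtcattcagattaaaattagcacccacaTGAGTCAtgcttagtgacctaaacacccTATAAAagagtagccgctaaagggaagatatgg
Mmp3, chr8:12925161-12925280, plus strand: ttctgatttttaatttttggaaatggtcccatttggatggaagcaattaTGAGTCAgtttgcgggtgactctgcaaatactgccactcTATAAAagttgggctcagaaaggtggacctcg
The AP-1 letters began 83 bases before the start in Plaur, 66 in Mmp13, 61 in Mmp10 and 71 in Mmp3. TATAAA followed them in the 3 metalloproteinases, 47, 33 and 32 bases before the start in Mmp13, Mmp10 and Mmp3, and 14.2% of all windows held it.

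All motifs were searched on both strands. AGGAAG, bound by ETS factors, was in the windows of Mmp13, Mmp3, Plaur and Timp1, and in 34.5% of all windows. GGGCGG, bound by Sp1, was in those of Adamts1, Plau, Timp1 and Timp2, and in 33.1% of all. TGACG, the core of a cAMP response element, was in the same 4 as GGGCGG, and in 21.2% of all. The full element TGACGTCA, which contains TGACG, was in none of the 8 and in 1.83% of all windows, and the Egr letters GCGNGGGCG, which can overlap GGGCGG, were in none of the 8 and in 4.98%. Timp1, which was counted at 120 min, held no TGANTCA in its window, and TATAAA was also in that of Adamts1. A match describes letters in a window, and no binding was measured.

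By the root mean square difference of the 6 log2 ratios, among named probes that entered the fits, time courses near to that of Plat were those of Apln, the peptide apelin, at 0.115 and of the kinase gene Mapkapk2 at 0.128. For Timp1 they were Isg20 at 0.0538, Fxyd2 at 0.0580 and Cdr2l at 0.0623. For Mmp13 they were the phosphatase gene Ptp4a1 at 0.230, Cga at 0.247 and Calca at 0.252. Plaur lay nearest to Ell2 at 0.254, Heca at 0.342 and Mmp13 at 0.374, and Mmp10 to Ankrd34c at 0.325, Sgms2 at 0.346 and Pdyn, the precursor of dynorphins, at 0.401. The nearest probes of Timp1 were well above background in control on all 12 arrays, as were Mapkapk2, Ptp4a1, Cga and Mmp13, whereas Apln, Calca, Heca, Ankrd34c and Pdyn were so on none, and Sgms2 and Ell2 on 1 and 3 of them. The ratios of these genes, like those of Mmp10 and Plaur, rest wholly or mostly on a control at background. For Plaur and Mmp10 the ratios from 5 to 30 min are of background in both RNAs, so their order of neighbours carries little weight.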

How the data were processed

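Arrays of PC12 cells with 2 colours were scanned and quantified by the authors with Agilent Feature Extraction, version 12.0.3.1 per the file headers and 11.0.1.1 per the submitters' processing notes. The intensities deposited for both dyes had the background subtracted and were dye-normalized by LOWESS. The mean and background intensities, the flags and a p-value of each spot's log ratio were also deposited, and the deposited table holds the log10 of processed Cy5 over Cy3. No deposited value was turned for the dye exchange. Each array's ratio was turned to PACAP38 over control. Control spots and 197 to 267 outlier spots per array were left out, and spots of 1 probe were averaged on the log2 scale. Between 39.8 and 48.9% of spots were well above background with PACAP38 and 38.4 to 49.6% in control, and 0 were saturated. The number of arrays limits the precision.

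Lower bounds and the comparison of pools used processed signals after Aquantile normalization. Fits were made with limma 3.58.1 in R 4.3.3, with Benjamini-Hochberg adjustment over 20264 probes, those with at least 1 RNA well above background on each of both arrays of a time point. On data simulated for 120 min with these probes the fit recovered 62% of log2 changes of 1 and 84% of log2 changes of 2, and 6.63% of its calls were false. Far fewer probes were changed there than were called at 120 min in the data, and the noise was normal, so these rates need not carry over. Named were all members, listed genes of the same systems counted at a time point, the 3 probes nearest to each counted member, and Fos, Egr1, Actb and Gapdh. Marker genes with folds and the listed genes named from the limma fit alone were added after their values were seen. Members and lists were chosen with earlier results of these data known. Alternatives changed the limits, arrays, background correction, normalization, filter, slide, control pools and time points. Python 3.11.15, pandas 2.3.3 and numpy 2.4.6 served for the tables. The proteome measurements were not analysed here, and a few results that the rule on names would include are not reported here.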

Additional observations from a re-analysis of the deposited data

How the results depend on the processing

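Signal over background limits these results, since 3 of the 9 genes gave no signal and the control of Plaur and Mmp10 was at or near background. With normexp and an offset of 50, members counted as higher numbered 0 at 60 min and 2 at 120 min (Plat and Mmp13), with loess as with median centring. The offset adds to both signals and so draws the ratio of dim probes towards 1. Under the other rules on fold, p-value, array and filter, the members counted at 120 min numbered 5, as reported. No member had a slope on log2 time, 5 had one on time in minutes, and leaving out 1 time point gave 0 to 1, the 1 being Mmp13 without 5 min. For Plaur the slope with slide as a block turned to -0.031, and the cause was not tested. For Timp2 the log2 difference from the control pools turned positive with only the arrays with PACAP38 in Cy3, at 0.11 at 60 min and 0.034 at 120 min (with only those of the opposite order it was -0.49 and -0.22, neither passing in limma), and with no normalization between arrays, at 0.42 at 120 min. Its slope turned to -0.00021 on time in minutes, and ran from -0.016 without 5 min to 0.0061 without 120 min over the left-out time points. In the fit at 60 min Mmp13 passed without the control pool of 10 min or of 60 min, and Plaur missed the threshold without that of 5, 10, 30 or 60 min, with adjusted p of 0.0651 to 0.0884 in limma. The labels give no replicate numbers. Both pools of a time point shared their arrays, and the log2 ratios and slopes use that pairing. In the comparison with the 6 control pools a term for time point would leave no degrees of freedom for error, so it was not fitted.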
